A study of Arabidopsis thaliana with 12 samples.

Results

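Transcript levels of 57 nuclear genes of Arabidopsis thaliana that encode proteins of the cytosolic ribosome were examined, out of 28775 genes in the deposited table. The 57 genes are a given list of locus codes, 28 for proteins of the small subunit and 29 for proteins of the large subunit, looked up in the table by code. This list and the gene lists set beside it were chosen with earlier results of these data known. Their shares beside all genes tested are therefore descriptions. All 57 passed the filter on low counts that left 19138 genes to test, so none is missing from the values given here. The libraries came from mature leaves of soil-grown, untreated plants kept in long days and collected at day 21, with polyA RNA sequenced in 12 libraries. There were 3 libraries of trb45 clf29 plants, which carry the trb45-1 line's mutations in TRB4 and TRB5 together with clf29; 3 of clf29 plants, with a mutation in CLF; 3 of trb45 plants (line trb45-1); and 3 of WT (Col0) plants. Both trb45 genotypes rest on this line alone, a second trb45 line was not analysed here, and clf29 is likewise a single allele. The labels do not say whether the libraries of a group came from separate plants or pools, so p-values measure the spread between these libraries.

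The cytosolic ribosome is built from ribosomal RNA and a large set of proteins, each needed in about equal amounts, and in Arabidopsis nearly every one of these proteins is encoded by a small family of expressed genes (paralogues). Leaves that are still growing make many ribosomes, and transcripts of ribosomal protein genes usually move together with growth. TRB proteins bind telomere repeats and short telomere-like motifs (telo-boxes) near gene starts, and telo-boxes are common in Arabidopsis promoters of ribosomal protein genes. CLF is a histone methyltransferase of Polycomb repressive complex 2, which TRB proteins are known to contact. The comparisons therefore ask how the ribosomal protein genes behave when TRB4 and TRB5, CLF, or all of these genes are mutated.

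Libraries held 45519206 to 54215882 counts, of which the 57 genes took 1.14% to 1.49%. CPM is the count per 1000000 counts after TMM scaling between libraries, and 3 counts corresponded to 0.0519 to 0.0655 CPM depending on the library. Each mutated gene was lower in the libraries labelled as its mutant: TRB5 lay at 1.12 to 1.72 CPM in trb45 clf29 and 1.79 to 4.34 CPM in trb45, against 15.6 to 19.6 CPM in clf29 and 16.7 to 18.2 CPM in WT. TRB4 lay at 1.24 to 1.31 CPM in trb45 clf29 and 1.35 to 3.04 CPM in trb45, against 3.92 to 4.55 CPM in clf29 and 4.91 to 6.20 CPM in WT. CLF was at most 0.209 CPM in every clf29 and trb45 clf29 library and at least 10.9 CPM in every other library. All 6 leaf marker genes (photosystem and Rubisco genes) were counted in every library, with summed levels of 69528 to 91267 CPM. Replicates differed by more than counting error in every group, so none was taken for a repeat deposit of another.

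Levels differed widely among the genes. Per kilobase of exon, WT leaves held a median of 175 CPM per kb, with a range of 1.69 to 495 CPM per kb. RPS8A, for a protein of the small subunit, stood highest at 495 ± 18.8 CPM per kb in WT, followed by RPL8A at 375 ± 30.8 CPM per kb (SD, n = 3 each). RPS2C, RPL10A and RPP0B came next at 354 to 364 CPM per kb, and their SDs of 10.7 to 27.2 CPM per kb overlap with each other and with that of RPL8A. At the low end stood RPL3B at 20.4 ± 0.324, RPL10B at 10.5 ± 0.450, RPSaB at 6.27 ± 0.308, RPS8B at 1.94 ± 0.138, RPS9C at 1.81 ± 0.234 and RPP0A at 1.69 ± 0.393 CPM per kb in WT (SD, n = 3 each). The last 3 overlap within their SD. Each of these 6 has a paralogue in the list with a higher level per kilobase in WT.

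In trb45 plants ribosomal protein genes differed from WT in both directions, by large factors for a few of them. In trb45 against WT, 28 of 57 genes changed (49.1%; edgeR adjusted p under 0.05), where 25.7% of all genes tested did. Of the 28, 11 rose, against a background of 14.5% of all genes, and 17 fell, against a background of 11.2%. The median log2 fold change of the 57 genes was −0.02, beside 0.01 for all genes tested. Small-subunit genes fell more often than they rose, with 3 higher and 9 lower of 28, while large-subunit genes split evenly, with 8 higher and 8 lower of 29; whether the subunits differ was not tested. Libraries of the groups did not overlap for 39 of the 57 genes, beside 37.7% of all genes tested.

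RPP0A (AT2G40010), a gene for the base protein P0 of the stalk, the flexible arm of the large subunit that receives translation factors, had 11.1, 14.8 and 13.3 CPM in trb45 libraries, against 2.28, 3.15 and 2.04 CPM in WT libraries. No library of either group overlapped with the other, and the log2 fold change was 2.39 (adjusted p = 3.03e-08, edgeR; SE 0.16). RPL12C (AT5G60670), for a protein that anchors the stalk to the ribosome, had 84.0, 102 and 93.0 CPM in trb45 libraries, against 44.3, 48.8 and 47.9 CPM in WT libraries. All 3 trb45 libraries lay above the WT libraries, with a log2 fold change of 0.98 (adjusted p = 6.72e-06, edgeR; SE 0.11). RPP1A, for an acidic stalk protein, rose by a smaller amount, with a log2 fold change of 0.37. RPL12B had a log2 fold change of −0.02 and did not pass the threshold, and RPL12A and RPP0B are among the genes that fell.

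RPS6A (AT4G31700) encodes the small-subunit protein S6, the known target of the S6 kinases downstream of TOR. It had 488, 585 and 498 CPM in trb45 libraries, against 314, 377 and 321 CPM in WT libraries. The groups did not overlap, and the log2 fold change was 0.63 (adjusted p = 2.13e-04, edgeR; SE 0.10). Further genes that rose in trb45 were RPS21B with a log2 fold change of 0.53, RPL13B with 0.53, RPL27aC with 0.46, RPL10B with 0.36, RPL10A with 0.32, RPL4D with 0.31 and RPS11A with 0.25. The call for RPS11A was lost with RLE scaling and under 4 other alternatives, and in 7 of 12 fits that each left out a library, where its adjusted p reached 0.209.

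Among the genes that fell, RPS8B (AT5G59240) was nearly silent. It had 0, 0.0437 and 0 CPM in trb45 libraries, against 1.84, 1.60 and 1.76 CPM in WT libraries, which are 0, 2 and 0 counts in trb45 and 106, 86 and 99 counts in WT. With the trb45 libraries set at 3 counts each, RPS8B was at least 30.6-fold lower in trb45 (edgeR adjusted p = 1.1e-06). Its paralogue RPS8A, abundant in every library, had a log2 fold change of 0.10 (adjusted p = 0.346, edgeR; SE 0.07). RPL3B (AT1G61580), a copy of the gene for L3, which lies close to the peptidyl transferase centre, had 5.05, 5.15 and 5.94 CPM in trb45 libraries, against 30.9, 30.1 and 30.0 CPM in WT libraries. The 3 trb45 libraries were alike and far below WT, with a log2 fold change of −2.49 (adjusted p = 1.29e-11, edgeR; SE 0.08). RPL10C (AT1G66580), for a protein that joins the large subunit late in its assembly, had 41.4, 50.4 and 49.5 CPM in trb45 libraries, against 90.6, 98.3 and 93.6 CPM in WT libraries. Here too no libraries overlapped, and the log2 fold change was −1.0 (adjusted p = 2.80e-07, edgeR; SE 0.08).

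RPL38B, RPL12A, RPS18A and RPS3A followed, with log2 fold changes of −0.95, −0.82, −0.71 and −0.63. RPS18A is known as POINTED FIRST LEAF, after the leaf shape of its mutant, and S3 lies at the entry of the mRNA channel. Smaller decreases were seen for RPL5B at −0.44, RPS4D at −0.39 and RPS3aB at −0.34. The other 7 genes that fell were RPP0B, RPS15aA, RPL8A, RPSaA, RPS6B, RPL7B and RPS3C, with log2 fold changes between −0.31 and −0.21. RPP0B lost its call in 9 of 12 fits that each left out a library, and its adjusted p reached 0.145. RPL8A, RPS6B and RPS3C each lost theirs in 4 of these fits and RPSaA in 3, with edgeR adjusted p up to 0.126. RPS15aA and RPL7B kept theirs in all 12.

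The promoters shown are not those of the 5 genes that moved most in trb45 against WT. RPL3B and RPL10C, with log2 fold changes of −2.49 and −1.0, moved more than RPL38B and RPL12A, at −0.95 and −0.82. Neither RPL3B nor RPL10C has a telo-box in the 100 bases before the start, and neither is shown. The share with a telo-box among the promoters shown therefore does not describe the genes that moved most. Promoter sequences of 5 genes are shown: 4 have a telo-box before the start and 1, RPP0A, has none there. Each is the 100 bases before the annotated gene start, on the gene's strand, 5′ to 3′, from RefSeq's TAIR10.1 annotation, and the capitals mark the telo-box (AAACCCTA or its reverse complement TAGGGTTT).
RPS8B, chr5:23903768-23903867, minus strand: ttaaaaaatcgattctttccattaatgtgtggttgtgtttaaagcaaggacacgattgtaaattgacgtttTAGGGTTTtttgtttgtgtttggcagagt
RPL38B, chr3:21996841-21996940, minus strand: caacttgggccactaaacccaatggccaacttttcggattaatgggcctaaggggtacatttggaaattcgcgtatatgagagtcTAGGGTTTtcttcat
RPL12A, chr2:15620157-15620256, minus strand: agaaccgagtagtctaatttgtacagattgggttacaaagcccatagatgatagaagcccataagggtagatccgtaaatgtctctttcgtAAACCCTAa
RPL12C, chr5:24381600-24381699, minus strand: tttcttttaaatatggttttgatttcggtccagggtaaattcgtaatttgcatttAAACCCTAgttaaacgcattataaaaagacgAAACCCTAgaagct
RPP0A, chr2:16710773-16710872, minus strand: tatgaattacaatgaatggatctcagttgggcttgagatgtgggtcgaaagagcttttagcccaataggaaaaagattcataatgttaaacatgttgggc
The first base of the telo-box lay at −29 in RPS8B, −15 in RPL38B, −9 in RPL12A and −45 in RPL12C, which has a further one nearer the start. RPL12A and RPL12C both hold the motif, while RPL12A fell and RPL12C rose in trb45.

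In the window from 250 bases before to 50 bases after the start, 29 of the 57 genes held a telo-box on either strand (50.9%). Over all promoters of annotated nuclear protein-coding genes, 1707 of 27443 did (6.22%). The site II motif (TGGGCC or its reverse complement), known as a binding motif of TCP factors, was present in 40 of the 57 (70.2%), beside 15.5% of all promoters. A match to one motif cannot lie within a match to the other; they can share at most 1 end letter. Telo-boxes stood in 4 of the 11 genes that rose in trb45 against WT (36.4%), in 10 of the 17 that fell (58.8%) and in 15 of the 29 that did not pass the threshold (51.7%). The median log2 fold change in trb45 against WT was −0.02 for the 29 genes with the motif and −0.04 for the 28 without it, and 15 values were negative in each set. A match is a description of these letters, and the shares were not tested.

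Libraries of a group differed in the level of the whole set. In trb45, replicate 2 had the highest sum of the 57 genes and the lowest level of TRB4 and TRB5. It also had the fewest counts of all libraries, 45519206, and the highest sums of leaf and dividing-cell markers in trb45. Without that library, 33 of the 57 genes changed, 10 higher and 23 lower, and the median log2 fold change was −0.12; without trb45 replicate 1 it was 0.01. Marker genes of dividing cells summed to 122 to 149 CPM in trb45 and 107 to 112 CPM in WT. Beside 14.5% of all genes tested that were higher and 11.2% lower, 7 of the 17 markers tested were higher and 1 lower in trb45. Their part in the result was not tested. In leaf tissue measured in bulk, fewer cells of a type and less RNA per cell cannot be told apart.

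**Figure D1:**
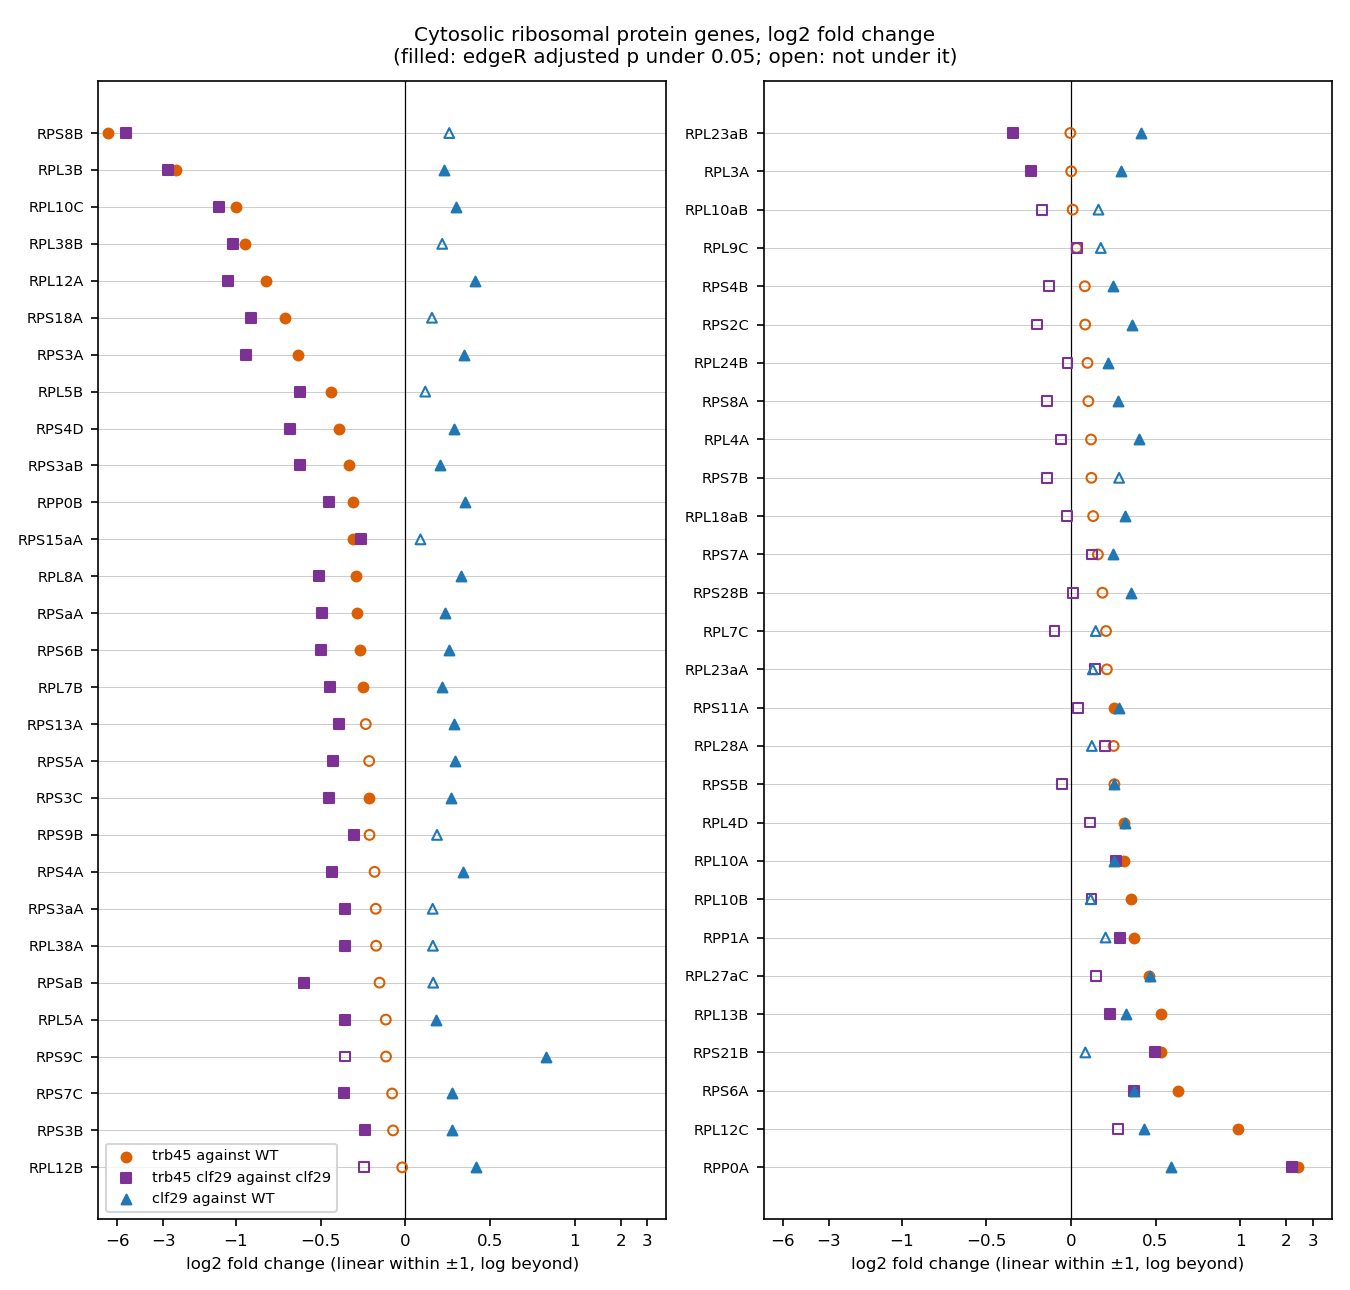
log2 fold changes of the 57 cytosolic ribosomal protein genes, ordered by the change in trb45 against WT, with 1 symbol per comparison (circles trb45 against WT, squares trb45 clf29 against clf29, triangles clf29 against WT; filled where the edgeR adjusted p is under 0.05); the axis is linear within ±1 and logarithmic beyond. All 57 triangles lie to the right of 0, while circles and squares reach from RPS8B on the far left to RPP0A at 2.39 and 2.18.

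In clf29 plants ribosomal protein transcripts were higher than in WT by small amounts across the set. In clf29 against WT, 39 of the 57 genes rose (68.4%) and 0 fell (edgeR; 45 higher and 0 lower at an unadjusted p under 0.05, and 41 higher and 0 lower with DESeq2), beside 34.7% of all genes tested that changed in either direction, 18.5% higher and 16.2% lower. All 57 log2 fold changes were positive. The log2 fold changes ran from 0.09 to 0.83 with a median of 0.27, beside 0.00 for all genes tested. Both subunits took part, with 20 of 28 small-subunit and 19 of 29 large-subunit genes higher. Libraries of the groups did not overlap for 47 of the 57 genes, beside 50.8% of all genes.

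RPS9C (AT5G39850), a weakly expressed copy of the gene for the small-subunit protein S9, had 3.37, 3.19 and 3.52 CPM in clf29 libraries, against 2.09, 1.95 and 1.62 CPM in WT libraries. Its log2 fold change of 0.83 (adjusted p = 0.00154, edgeR; SE 0.17) was the highest of the set. RPP0A had 3.73, 3.34 and 4.14 CPM in clf29 libraries, against 2.28, 3.15 and 2.04 CPM in WT libraries. The 3 clf29 libraries lay above WT, with a log2 fold change of 0.59 (adjusted p = 0.0122, edgeR; SE 0.16). RPL27aC (AT1G70600), known in Arabidopsis for the leaf and ovule defects of its mutants, had 481, 407 and 456 CPM in clf29 libraries, against 305, 350.2 and 319 CPM in WT libraries. These groups did not overlap either, and the log2 fold change was 0.46 (adjusted p = 0.0013, edgeR; SE 0.09).

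The next 7 genes were RPL12C at 0.43, RPL12B at 0.42, RPL23aB at 0.41, RPL12A at 0.41, RPL4A at 0.40, RPS6A at 0.37 and RPS2C at 0.36. All 3 copies of the L12 gene thus rose by nearly the same log2 fold change. The smallest increases past the threshold belonged to RPL5A, RPS3aB and RPL7B. RPL5A (AT3G25520), for the protein that carries 5S ribosomal RNA into the ribosome, had 361, 411 and 391 CPM in clf29 libraries, against 336, 342 and 349.6 CPM in WT libraries, a log2 fold change of 0.18 (adjusted p = 0.0495, edgeR; SE 0.07). RPS3aB (AT4G34670) had 233, 264 and 236 CPM in clf29 libraries, against 210.0, 221 and 205 CPM in WT libraries, a log2 fold change of 0.21 (adjusted p = 0.049, edgeR; SE 0.08). RPL7B (AT2G01250) had 428, 477 and 447 CPM in clf29 libraries, against 388, 389 and 387 CPM in WT libraries, a log2 fold change of 0.22 (adjusted p = 0.0248, edgeR; SE 0.07). In these 3 genes every clf29 library lay above every WT library, although by little. Of 12 fits that each left out a library, RPL5A lost its call in 9, RPS3aB in 8, RPL7B in 4 and RPP0A in 3.

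The number of genes past the threshold depended on single libraries. It fell to 13 of 57 without WT replicate 1, where 22.4% of all genes tested were called, to 15 without WT replicate 3, to 21 without clf29 replicate 2 and to 25 without clf29 replicate 3. All 57 log2 fold changes stayed positive in each of the 12 fits that left out a library, with medians from 0.24 to 0.30; scaling by library size alone, under which the median of all genes was −0.09, gave 56 positive and 1 negative value and a median of 0.18. With that scaling 29 of the 57 genes rose and 0 fell, and the share of higher genes among all calls was 36.6%, beside 53.3% with TMM. Anther marker genes, absent from leaves in textbook accounts, summed to 13.5, 3.36 and 8.19 CPM in clf29 libraries, against 0.0558 to 0.122 CPM in WT libraries, and all 3 that were tested rose. Senescence marker genes summed to 113 to 116 CPM in clf29 and 92.2 to 95.7 CPM in WT, with 3 of 8 higher, and dividing-cell markers to 94.8 to 102 CPM in clf29 and 107 to 112 CPM in WT, with 2 of 17 lower. Of the senescence markers 37.5% were called and of the dividing-cell markers 11.8%, beside 34.7% of all genes tested (18.5% higher and 16.2% lower). The part of these markers in the result was not tested.

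In the clf29 background the trb45 mutations mostly lowered ribosomal protein transcripts. In trb45 clf29 against clf29, 35 of 57 genes changed, beside 31.4% of all genes tested; 6 rose, against 17.2% of all genes, and 29 fell, against 14.2%. The median log2 fold change was −0.25, beside 0.02 for all genes, and 41 of 57 values were negative. Of the small-subunit genes 2 rose and 17 fell, with a median of −0.36, and of the large-subunit genes 4 rose and 12 fell, with a median of −0.10. Libraries of the groups did not overlap for 34 of the 57 genes, beside 47.6% of all genes.

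RPP0A again rose most, with 18.4, 14.8 and 17.8 CPM in trb45 clf29 libraries, against 3.73, 3.34 and 4.14 CPM in clf29 libraries, a log2 fold change of 2.18 (adjusted p = 4.57e-08, edgeR; SE 0.15). RPS21B (AT3G53890), for a small-subunit protein, had 197, 148 and 166 CPM in trb45 clf29 libraries, against 114, 124 and 124 CPM in clf29 libraries. Every trb45 clf29 library stood above every clf29 library, with a log2 fold change of 0.50 (adjusted p = 4.97e-04, edgeR; SE 0.09). RPS6A had 640.0, 487 and 565 CPM in trb45 clf29 libraries, against 415, 461 and 433 CPM in clf29 libraries, also without overlap, a log2 fold change of 0.37 (adjusted p = 0.00919, edgeR; SE 0.10). RPP1A, RPL10A and RPL13B rose as well, with log2 fold changes of 0.29, 0.27 and 0.23; the call for RPL13B was lost under 7 of 9 alternative settings.

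RPS8B had 0.0399, 0.116 and 0 CPM in trb45 clf29 libraries, against 1.65, 2.55 and 2.03 CPM in clf29 libraries, which are 2, 6 and 0 counts in trb45 clf29 and 88, 132 and 107 counts in clf29. Its fitted log2 fold change was −5.25 (adjusted p = 1.29e-06, edgeR; SE 0.50), a value that depends on the prior count at so few reads. RPL3B had 5.34, 5.19 and 4.99 CPM in trb45 clf29 libraries, against 32.7, 38.6 and 35.0 CPM in clf29 libraries, a log2 fold change of −2.78 (adjusted p = 4.10e-12, edgeR; SE 0.08). RPL10C had 51.1, 43.5 and 47.4 CPM in trb45 clf29 libraries, against 111, 115 and 121 CPM in clf29 libraries, a log2 fold change of −1.29 (adjusted p = 1.41e-08, edgeR; SE 0.08). For each of these 3 genes the trb45 clf29 libraries lay wholly below the clf29 libraries. Further decreases were found for RPL12A at −1.13, RPL38B at −1.04, RPS3A at −0.94, RPS18A at −0.91, RPS4D at −0.68, RPS3aB at −0.62 and RPL5B at −0.62.

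The summed level of the 57 genes varied more among the trb45 clf29 libraries than within other groups, and replicate 2, with the lowest sum, had the highest summed level of senescence markers. Those markers summed to 113, 142 and 129 CPM in trb45 clf29 libraries, against 113 to 116 CPM in clf29 libraries, and 3 of 8 were higher. Dividing-cell markers summed to 100 to 117 CPM in trb45 clf29 and 94.8 to 102 CPM in clf29, with 4 of 17 higher and 2 lower. Anther markers summed to at most 0.193 CPM in trb45 clf29 and at least 3.36 CPM in clf29. Beside 31.4% of all genes tested, 37.5% of the senescence markers and 35.3% of the dividing-cell markers were called. Their part in the result was not tested. Without replicate 1, 2 or the unnumbered replicate of trb45 clf29, between 29 and 39 of the 57 genes changed.

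Both trb45 comparisons were made on separate libraries, so their lists can be set side by side. Of the 57 genes, 23 changed in both, which is 82.1% of the 28 called in trb45 against WT and 65.7% of the 35 called in trb45 clf29 against clf29. All 23 moved the same way, 17 lower and 6 higher. Among all genes tested, 2866 changed in both comparisons, 58.3% of the first list and 47.7% of the second, and 95.1% of these moved the same way. Another 5 genes of the set passed the threshold only against WT, 12 only against clf29, and 17 in neither comparison; passing in a single background does not show that the backgrounds differ.

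The difference between the backgrounds was tested directly as the interaction, the trb45 effect in clf29 minus the trb45 effect in WT. It was negative for 54 of the 57 genes, with a median of −0.21 on the log2 scale beside −0.01 for all genes, and it passed the threshold for RPL12C alone, with a negative sign, where 7.47% of all genes tested passed, 4.16% positive and 3.31% negative. At an unadjusted p under 0.05 there were 17 negative and 0 positive genes, and DESeq2 called 1. RPL12C had 89.0, 66.7 and 75 CPM in trb45 clf29 libraries, against 54.7, 69.7 and 66.0 CPM in clf29 libraries, beside 84.0, 102 and 93.0 CPM in trb45 libraries, against 44.3, 48.8 and 47.9 CPM in WT libraries. The WT libraries were lowest, and the trb45 clf29 libraries overlapped with both the trb45 and the clf29 libraries. Its interaction was −0.71 (adjusted p = 0.00888, edgeR; SE 0.15). The number of genes past the threshold rested on single libraries: it was 14, all negative, without trb45 clf29 replicate 1, in which the sum of the 57 genes was highest of its group, 3 without trb45 replicate 1, and 8 with scaling by library size alone, under which 41.5% of all calls were positive, beside 55.7% with TMM. The interaction uses the same clf29 and WT libraries as the comparison of clf29 against WT.

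Few of the 57 genes differed between trb45 clf29 and trb45. With TMM scaling 5 rose and 0 fell (edgeR; 6 higher and 1 lower at an unadjusted p under 0.05, 5 higher and 1 lower with DESeq2), beside 30.5% of all genes tested, 15.8% higher and 14.7% lower. With scaling by library size alone, under which the median of all genes was −0.13, 0 rose and 7 fell, and higher genes made up 25.2% of all calls, beside 51.8% with TMM. The 5 genes were RPS9C at 0.59, RPP0A at 0.38, RPL4A at 0.22, RPS7A at 0.21 and RPL10A at 0.21. The median log2 fold change was 0.07 with TMM and −0.06 with library size alone, and libraries of the groups did not overlap for 4 of the 57 genes, beside 39.3% of all genes. These 5 calls were lost in some fits: 0 passed without trb45 replicate 3 (20.7% of all genes then did), 0 without the unnumbered trb45 clf29 replicate, 2 (1 higher and 1 lower) without trb45 replicate 1, 3 without WT replicate 3 and 11 without trb45 replicate 2; without trb45 clf29 replicate 1, 1 was higher and 3 lower. In trb45 clf29 against WT, 36 genes changed, 20 higher and 16 lower, beside 48.5% of all genes tested (25.9% higher and 22.6% lower). The median was 0.05, and libraries did not overlap for 31 genes, beside 57% of all genes. Single libraries turned this balance: 14 genes were higher and 22 lower without trb45 clf29 replicate 1, with a median of −0.05, and 22 higher and 10 lower without trb45 clf29 replicate 2, with a median of 0.13. Without WT replicate 1 there were 14 higher and 15 lower, and without WT replicate 3 there were 12 higher and 14 lower; RLE scaling gave 18 each way. With library size alone, under which the median of all genes was −0.10, 14 genes rose and 25 fell, the median was −0.07, and 37% of all calls were higher, beside 53.3% with TMM.

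Because copies of a gene for the same protein moved in different ways, their ratio was followed within each library. The list holds more than 1 copy for 18 proteins, which gives 28 pairs of paralogues; pairs of a 3-copy family share members and are not independent. For each pair the log2 ratio of the counts (2 added to each on average) was compared by an exact two-sided permutation test of 400 arrangements of the libraries within each state of the other mutation, whose smallest p is 0.005, adjusted over 56 tests. The trb45 mutations changed the ratio of 24 of the 28 pairs and clf29 that of 6. A total of 11 pairs changed by more than 1.5-fold with trb45 and 0 with clf29; at an unadjusted p under 0.05 the counts were 24 and 7. With trb45 the median absolute change was 0.41 on the log2 scale, and with clf29 it was 0.09. The sign of the trb45 change was the same in both CLF backgrounds for 25 of the 28 pairs.

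The 4 largest changes with trb45 had an exact permutation p of 0.005 and an adjusted p of 0.0108 each, with all 6 trb45 libraries on the same side of all 6 others. RPS8A over RPS8B shifted by 4.96 on the log2 scale, a size that depends on the prior count since RPS8B was close to 0. RPP0B over RPP0A shifted by −2.67: the log2 ratio was 4.82 ± 0.11 in trb45 clf29 and 4.99 ± 0.06 in trb45, against 7.46 ± 0.16 in clf29 and 7.70 ± 0.24 in WT (SD, n = 3 each). RPL3A over RPL3B shifted by 2.51, with log2 ratios of 6.87 ± 0.15 in trb45 clf29 and 6.76 ± 0.19 in trb45, against 4.35 ± 0.09 in clf29 and 4.27 ± 0.11 in WT (SD, n = 3 each). RPL12A over RPL12C shifted by −1.61: RPL12A made up 44.5% ± 1.04 in trb45 clf29 and 37.9% ± 0.792 in trb45, against 67.9% ± 1.19 in clf29 and 68.2% ± 0.580 in WT (SD, n = 3 each), of the pair's counts. The order of these paralogues was thus turned round, with RPL12C above RPL12A in the trb45 genotypes and RPL12A above RPL12C in the others.

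RPL10A over RPL10C, RPL10B over RPL10C, RPS6A over RPS6B, RPL12A over RPL12B, RPL12B over RPL12C and RPL38A over RPL38B shifted by 1.44, 1.39, 0.89, −0.84, −0.76 and 0.73 on the log2 scale with trb45. For S6, RPS6A made up 65.6% ± 0.607 in trb45 clf29 and 64.4% ± 0.700 in trb45, against 51.2% ± 0.482 in clf29 and 49.2% ± 1.74 in WT (SD, n = 3 each), of the pair. The 4 pairs whose ratio did not pass the threshold were RPL10A/RPL10B at 0.05, RPS7A/RPS7B at 0.16, RPS9B/RPS9C at −0.03 and RPSaA/RPSaB at −0.01 (adjusted exact permutation p from 0.0848 to 0.955).

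**Figure D2:**
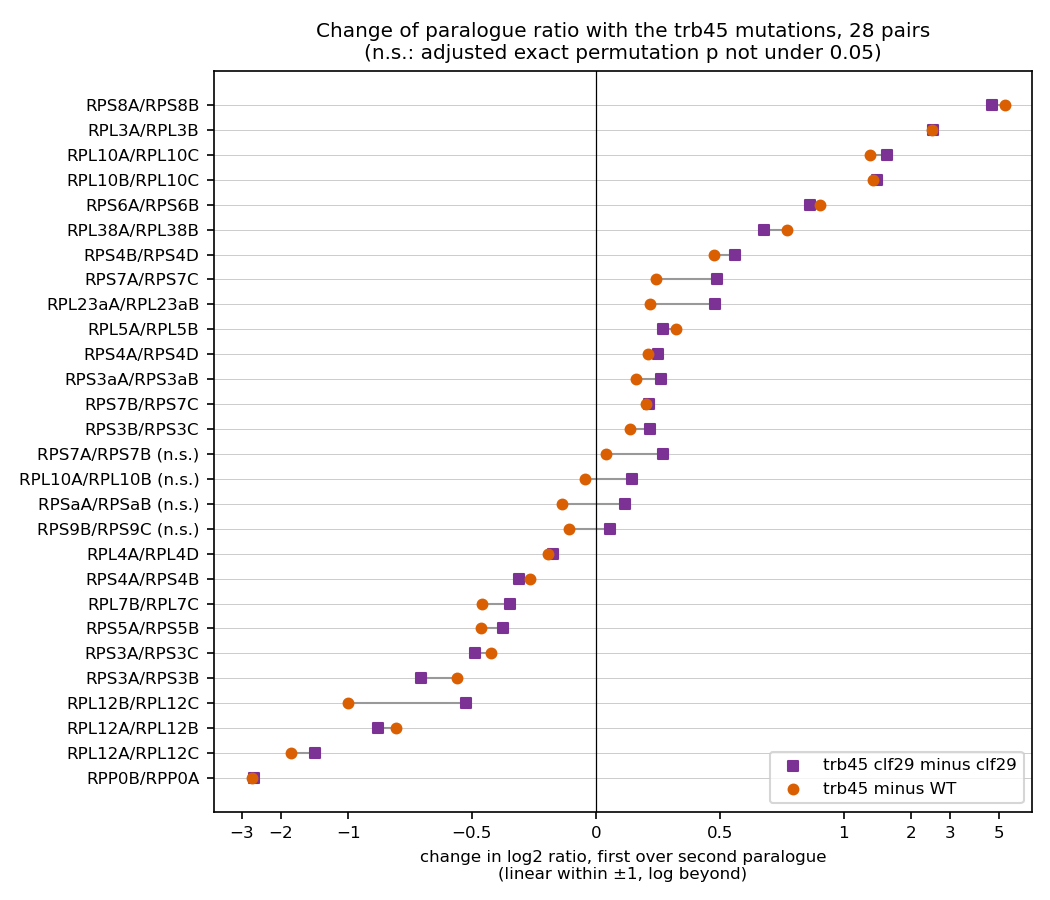
Change of the log2 count ratio of 28 paralogue pairs with the trb45 mutations, in the clf29 background (squares, mean of trb45 clf29 minus mean of clf29) and in the WT background (circles, mean of trb45 minus mean of WT); the axis is linear within ±1 and logarithmic beyond, and n.s. marks 4 pairs whose adjusted exact permutation p is not under 0.05. Square and circle fall on the same side of 0 for 25 pairs, from RPP0B/RPP0A at −2.64 and −2.71 to RPS8A/RPS8B at 4.62 and 5.29.

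The changes with clf29 were smaller. RPS9B over RPS9C shifted by −0.56 (exact permutation p = 0.015, adjusted p = 0.028), with log2 ratios of 7.18 ± 0.50 in trb45 clf29 and 7.12 ± 0.11 in clf29, against 7.65 ± 0.23 in trb45 and 7.76 ± 0.18 in WT (SD, n = 3 each); the trb45 clf29 libraries were widely spread. RPL10A over RPL10B shifted by 0.23, with log2 ratios of 5.65 ± 0.05 in trb45 clf29 and 5.51 ± 0.09 in clf29, against 5.33 ± 0.05 in trb45 and 5.37 ± 0.06 in WT (SD, n = 3 each). RPL10B over RPL10C shifted by −0.16, with log2 ratios of −1.87 ± 0.04 in trb45 clf29 and −3.28 ± 0.07 in clf29, against −1.74 ± 0.05 in trb45 and −3.10 ± 0.08 in WT (SD, n = 3 each). RPL7B over RPL7C shifted by 0.13, with log2 ratios of 1.56 ± 0.05 in trb45 clf29 and 1.91 ± 0.04 in clf29, against 1.37 ± 0.08 in trb45 and 1.83 ± 0.03 in WT (SD, n = 3 each). The last 3 had an exact permutation p of 0.005 and an adjusted p of 0.0108. RPS6A/RPS6B and RPL4A/RPL4D completed the 6, at 0.10 and 0.09. Of 12 fits that each left out a library, RPS9B/RPS9C lost its call in 4 and RPS6A/RPS6B in 3, and the other 4 pairs kept theirs in all 12. With limma in place of the exact test 12 pairs passed for clf29 and 25 for trb45.

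**Figure D3:**
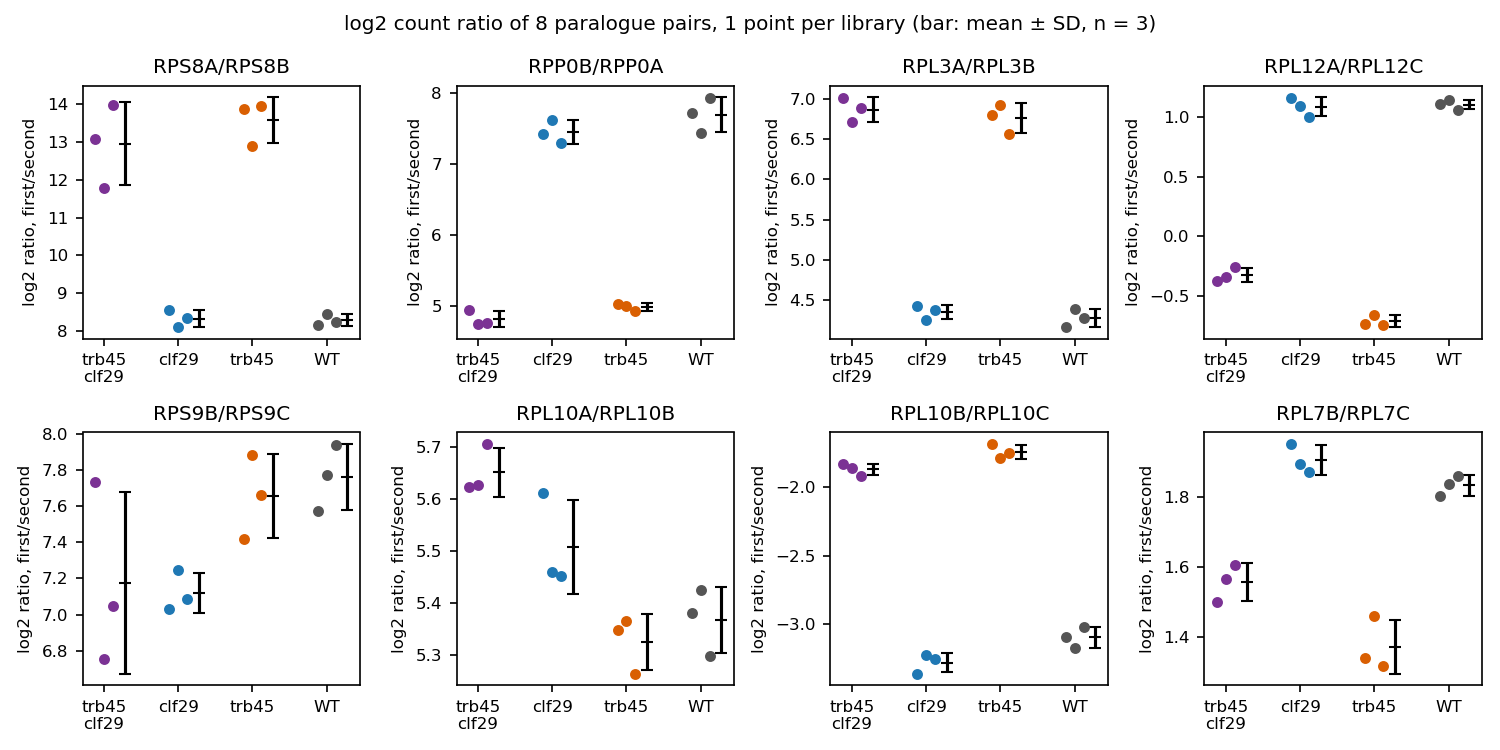
log2 count ratio of 8 paralogue pairs in each of the 12 libraries (points; bars give the mean and SD of 3 libraries), with the 4 largest changes with trb45 in the upper row and the 4 largest with clf29 in the lower row. In the upper row the trb45 clf29 and trb45 libraries stand together and apart from clf29 and WT, as for RPL12A/RPL12C at −0.32 and −0.71 against 1.08 and 1.1; the vertical axes differ between panels and do not start at 0.

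Levels were also summed over the listed copies of each protein, a sum being set mostly by its most abundant copy. Over the 18 proteins with more than 1 listed copy, the log2 ratio of the summed CPM in trb45 over WT ran from −0.46 for L38 to 0.25 for S6, with a median of −0.08. In 4 of the 18 families (S6, L10, P0 and L12) some copies rose and others fell, and in 3 families (S6, L10 and P0) this was so in trb45 clf29 against clf29. In clf29 against WT no family had calls in both directions, 10 of 18 had more than 1 copy higher, and the log2 ratio of the sums ran from 0.15 to 0.42. The listed copies are not all copies of each protein; 31 further copies are described below.

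Over stretches of 100 bases, most listed copies differ enough in sequence to be counted apart. Coding sequences of the 28 pairs were 71.5% to 92.7% identical, and no pair shared an exon stretch of 100 bases in the RefSeq annotation of TAIR10.1. Stretches of 50 bases were shared in 5 pairs. The largest shares were 4.03% of such stretches in RPL10A and 4.45% in RPL10C, which share them with each other. RPL9C is the exception in the list, with 51.7% of its 100-base exon stretches also present in RPL9B, which is not a member, so its count is uncertain; in trb45 against WT its log2 fold change was 0.03 (adjusted p = 0.802, edgeR; SE 0.08). RPSaB shared 2.4% of such stretches with AT3G04780.

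The summed level of the 57 genes was 14663, 11761 and 12878 CPM in trb45 clf29, 14403, 15549 and 15082 CPM in clf29, 11511, 13392 and 12311 CPM in trb45, and 11939, 13088 and 12195 CPM in WT. The clf29 libraries stood above every trb45 and WT library, while trb45 and WT overlapped, with means of 12405 ± 944 CPM in trb45 and 12407 ± 603 CPM in WT (SD, n = 3 each). The trb45 clf29 libraries were spread the widest and overlapped with every other group.

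**Figure D4:**
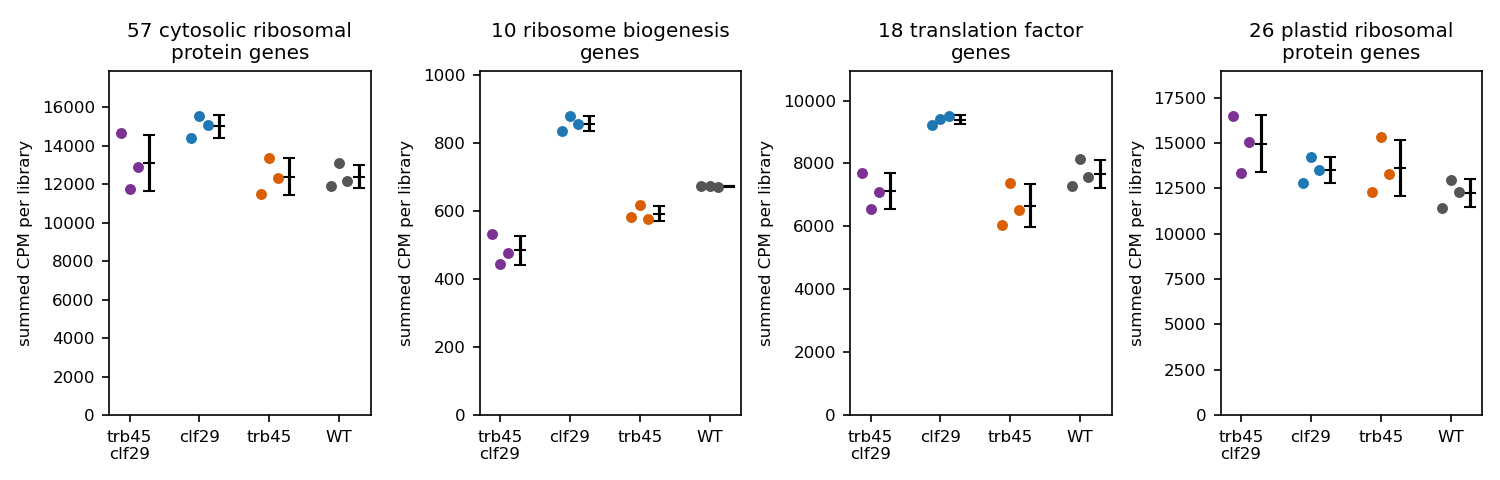
Summed CPM per library (points) of 57 cytosolic ribosomal protein genes and of 10 ribosome biogenesis genes. Further panels show 18 genes listed as translation factors, RACK1 and TCTP1 genes among them, and 26 plastid ribosomal protein genes. Groups are trb45 clf29, clf29, trb45 and WT. Bars give the mean and SD of 3 libraries, and each axis starts at 0. The first 3 panels are highest in clf29, with means of 15011, 857 and 9387 CPM, while the plastid set has its highest mean, 14963 CPM, in trb45 clf29.

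Other copies of the ribosomal protein genes were counted beside the members. Of 31 further copies 29 were tested. In trb45 against WT 9 rose and 5 fell, beside 14.5% of all genes tested that rose and 11.2% that fell. In clf29 against WT 21 rose and 0 fell (24 and 0 at an unadjusted p under 0.05), beside 18.5% and 16.2%. In trb45 clf29 against clf29 3 rose and 15 fell, beside 17.2% and 14.2%. RPL9D and RPS18C fell in both trb45 comparisons, with log2 fold changes of −1.22 and −0.95 in trb45 against WT and −1.46 and −1.14 in trb45 clf29 against clf29. RPP0C, a further P0 copy, rose on the log2 scale by 0.64 and 0.32 in these comparisons, as RPP0A did. RPS2A, which has near-identical copies between which reads may be split, rose on the log2 scale by 0.70 in trb45 against WT and by 0.60 in clf29 against WT, and was the only further copy with an interaction past the threshold, at −0.65.

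Genes that act around the ribosome were listed beside the members. A list of 18 genes held translation factor genes together with RACK1A, RACK1B, RACK1C and TCTP1, which encode other proteins. Of these 18 genes, 2 rose and 6 fell in trb45 against WT, beside 14.5% and 11.2% of all genes tested. In clf29 against WT 14 rose and 0 fell (15 and 0 unadjusted), beside 18.5% and 16.2%. In trb45 clf29 against clf29 1 rose and 13 fell, beside 17.2% and 14.2%. RACK1C, a copy of the gene for the scaffold protein bound to the small subunit, had 11.5, 13.9 and 12 CPM in trb45 libraries, against 134, 144 and 139 CPM in WT libraries. Its log2 fold change was −3.48 (adjusted p = 3.59e-12, edgeR; SE 0.10) in trb45 against WT and −3.86 (adjusted p = 1.59e-12, edgeR; SE 0.10) in trb45 clf29 against clf29, so its groups stood far apart, as for RPS8B and RPL3B. TCTP1, a growth regulator whose transcript is abundant in dividing tissue, fell by 1.31 and 1.23 on the log2 scale in these comparisons.

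Of 10 ribosome biogenesis genes, which act in the nucleolus on ribosomal RNA, 2 rose and 4 fell in trb45 against WT. In clf29 against WT 7 rose and 0 fell, and in trb45 clf29 against clf29 0 rose and 6 fell. The counts of the last 2 comparisons are the same at an unadjusted p under 0.05. Of all genes tested, 14.5%, 18.5% and 17.2% rose and 11.2%, 16.2% and 14.2% fell in these comparisons, in the order given. NOP56, a core protein of the particles that methylate ribosomal RNA, had log2 fold changes of −0.72, 0.45 and −1.54 in these comparisons. FIB2, which encodes the methyltransferase fibrillarin, fell by 0.69 on the log2 scale in trb45 against WT and by 1.31 in trb45 clf29 against clf29, and NUC-L1, for nucleolin, fell by 1.20 in trb45 clf29 against clf29. NOP5-1, a further such core protein, rose by 0.83 on the log2 scale in trb45 against WT. The interaction was negative and past the threshold for 7 of these 10 genes, with a median of −0.61. A single member of the 57 passed, and 3.31% of all genes tested passed with a negative sign.

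A further list of 8 genes held genes of the TOR pathway and the transcription factor genes NAC082 and TCP20, which are not components of it. Of these 8 genes, 2 rose and 1 fell in trb45 against WT, beside 25.7% of all genes tested that changed. In clf29 against WT 0 changed (edgeR, with 1 higher and 1 lower at an unadjusted p under 0.05), beside 34.7%. In trb45 clf29 against clf29 3 rose and 2 fell, beside 31.4%. S6K2, a kinase of the S6 protein, rose on the log2 scale by 0.66 in trb45 against WT and by 0.85 in trb45 clf29 against clf29. The proteins of the plastid ribosome are encoded by separate genes. Of 26 plastid ribosomal protein genes, 3 rose and 0 fell in trb45 against WT, 2 rose and 0 fell in clf29 against WT, 4 rose and 0 fell in trb45 clf29 against clf29, and 17 rose and 0 fell in trb45 clf29 against WT. Of all genes tested, 14.5%, 18.5%, 17.2% and 25.9% rose in these comparisons, in the order given. None of the 26 was lower at an unadjusted p under 0.05 in any of these 4 comparisons, and 7, 3, 8 and 19 were higher in the order given (edgeR).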

How the data were processed

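PolyA RNA of mature leaves was sequenced in stranded mRNA libraries, 12 in all, 3 for each of 4 genotypes. The authors deposited whole-number counts for 28775 genes, without normalization, and name HISAT2, DESeq2 and TAIR10 in the submitters' processing notes; the counting program, the annotation and the strand setting are not given in the sources used here. A trb45 clf29 column without a number in its name entered as an unnumbered replicate.

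Counts were fitted with edgeR 4.0.16 in R 4.3.3 (quasi-likelihood test, TMM scaling, filterByExpr at 10 counts and a total of 15, 4 group means over 12 libraries). P-values were adjusted by Benjamini-Hochberg over 19138 genes and called under 0.05. SE is the log2 fold change divided by the root of its F statistic. Fits were tested on simulated data. Ratios of paralogues used a prior count of 2 and exact permutation tests. limma 3.58.1 and DESeq2 1.42.0 served as alternatives, beside other scalings, filters, a replicate block and fits without each library.

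The members and lists were chosen with earlier results of these data known. Per-library values are given for the 3 highest and 3 lowest genes past the threshold in each of 3 comparisons and the interaction, for the lowest expressed gene and for the paralogues of genes so named where stated; pairs are the 4 with the largest change past the threshold for each effect. RPS8A and RPL9C are given outside this rule, chosen after their values were seen. Further genes are named by fold change, up to 10 each way, and up to 3 each way for other lists. Gene symbols follow RefSeq's TAIR10.1 annotation or the usual letters of the paralogues. Promoters were read from the TAIR10.1 genome by locus code.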

Additional observations from a re-analysis of the deposited data

Results flagged for a closer look

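RPL12C was the only gene of the 57 to pass the threshold when the trb45 effect was compared between the CLF backgrounds. That the other 56 did not pass does not show that their responses were alike, since 54 of the 57 interactions were negative. Its interaction, the log2 fold change of trb45 clf29 against clf29 minus that of trb45 against WT, was −0.71 (edgeR adjusted p = 0.00888). The log2 fold change was 0.28 in trb45 clf29 against clf29, which did not pass the threshold, and 0.98 in trb45 against WT. The adjusted p of the interaction stayed under 0.05 in each of the 12 fits that left out a library. With the replicate block it was 0.0718 (edgeR), so the call was lost there. The other copies of the L12 gene, RPL12A and RPL12B, had interactions of −0.30 and −0.23 that did not pass the threshold.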

How the results depend on the processing

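No gene or pair past the threshold changed direction in the alternatives run; pairs and genes not past it were not followed. The balance of higher and lower calls turned with scaling by library size alone in trb45 clf29 against trb45 and against WT, in both also without trb45 clf29 replicate 1, and in trb45 clf29 against WT without WT replicate 1 or 3. Fits that left out each library gave 21 to 35 genes called in trb45 against WT, 13 to 42 in clf29 against WT, 26 to 37 in trb45 clf29 against WT, 29 to 39 in trb45 clf29 against clf29, 0 to 11 in trb45 clf29 against trb45 and 1 to 14 for the interaction; pairs called ranged from 23 to 25 for trb45 and from 4 to 7 for clf29. With scaling by library size alone the interaction was called for 8 genes, and the median log2 fold change was −0.073 in trb45 clf29 against WT and −0.064 in trb45 clf29 against trb45. In trb45 clf29 against trb45, 1 gene was called when only the groups compared were fitted and 0 when only the 11 numbered libraries were. limma called 12 pairs for clf29. The causes were not tested. The edgeR fit with a replicate block used only the 11 numbered libraries, without the unnumbered trb45 clf29 replicate. Its counts therefore differ from the main fit in both the block and the libraries. The replicate block called 22 genes in trb45 against WT, 29 in clf29 against WT, 24 in trb45 clf29 against WT, 25 in trb45 clf29 against clf29, 0 in trb45 clf29 against trb45 and 0 for the interaction; with limma it called 24 and 7 pairs. Under the block the adjusted p was 0.0718 for the RPL12C interaction, and 0.0601 for RPS9B/RPS9C and 0.0627 for RPS6A/RPS6B with clf29. Same-numbered libraries correlated over 0.1 in 2 of 15 pairs (r from −0.25 to 0.32), and differently numbered ones in 3 of 30 (r from −0.29 to 0.24). The numbers were therefore not taken as pairing. Both same-numbered pairs over 0.1 were of WT with trb45, replicates 1 (r = 0.27) and 2 (r = 0.32). For single named genes and pairs, 3154 values kept their call and 379 lost it. Leaving out the 10 most counted genes and fitting the numbered libraries without a block were chosen after seeing the data. At 0 to 6 counts a library, depth limits RPS8B in the trb45 genotypes.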
